A study of Homo sapiens with 6 samples.

Results

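Phosphoinositide 3-kinase (PI3K), its target kinase AKT and the phosphatases that act against them were followed here through 8 genes of an RNA-seq experiment in HCT116 cells, a human colorectal carcinoma line. The genes encode catalytic subunits alpha and beta of class I PI3K (PIK3CA and PIK3CB), its regulatory subunit (PIK3R1), 2 inositol phosphatases (INPP5D, also called SHIP1, and INPPL1, also called SHIP2), 2 AKT kinases (AKT1 and AKT2) and an AKT phosphatase (PHLPP1). They were taken by their symbols from the 28491 genes of the count table, and all 8 passed the filter on low counts that 16260 genes passed. Of the 8 genes, INPP5D was chosen by its lower level in the RBM47 libraries of this same comparison, so that it is described with no p-value. The other 7 were chosen by their function, with earlier results of these data known.

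RBM47 is an RNA-binding protein of the cell nucleus, and the experiment asked which transcripts change when it is overexpressed. The 3 control libraries (NC) came from cells given the empty plasmid and the 3 RBM47-OE libraries from cells given a plasmid that carries RBM47, in both cases with Lipofectamine 2000 and with harvest after 48 h. The sources used here name different plasmids (pcDNA3.1 with a Flag tag in the labels, pIRES-hrGFP-1a in the methods), different media (DMEM and McCoy's 5A) and different stranded library kits, and which of them apply to these libraries was not settled. The cells of both groups were transiently transfected, a single line was used, and nothing in the labels says that the 3 libraries of a group came from separate cultures, so the p-values measure only the spread between these libraries.

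PI3K is recruited to activated growth factor receptors by its regulatory subunit and phosphorylates a membrane inositol lipid to make PIP3. PIP3 draws AKT to the membrane, where PDPK1 and the mTORC2 complex phosphorylate and activate it, and active AKT promotes growth, metabolism and survival and keeps FOXO transcription factors out of the nucleus. INPP5D and INPPL1 remove a phosphate from PIP3 other than the one PI3K adds, and PHLPP1 dephosphorylates AKT itself. The pathway is among the most often altered in colorectal cancer, and INPP5D is known mainly from blood cells.

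The 3 PI3K subunit genes rose in RBM47-OE, AKT2 fell slightly, and AKT1, INPPL1 and PHLPP1 did not pass the test. In edgeR's quasi-likelihood test, with a Benjamini-Hochberg adjusted p under 0.05 as the threshold, 3 of the 7 genes other than INPP5D were higher and 1 was lower, where 19.1% of all 16260 genes tested were higher and 16.9% were lower. An offset in the fit for the GC content of the genes ended all 4 of these calls: with it 0 of the 7 genes passed the threshold, where 5.97% of all genes tested were higher and 8.57% were lower. The changes were small: without the offset the fold changes of these 7 genes lay between 0.848 and 1.46. None of the 7 passed an unadjusted p under 0.01 together with a fold change over 1.5, the thresholds of the study's methods, which 1.51% of genes passed as higher and 0.873% as lower. The nearest to the fold limit was PIK3CA. INPP5D, at a fold change of 0.468, is left out of this count because it was chosen for its lower level.

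The libraries held 26792409 to 35477983 assigned reads. RBM47 itself had 1.91 to 2.33 FPKM (fragment counts scaled by gene length and library depth) in NC against 127.04 to 131.3 FPKM in RBM47-OE. Among epithelial markers EPCAM, KRT8, KRT18 and KRT19 were high, while CDX1, LGALS4, TSPAN8 and VIL1 were near 0. Across 16229 genes with a known base composition, each RBM47-OE library departed from the NC mean along the GC content of the gene's exons, with Spearman's rho of -0.41, -0.59 and -0.67 in replicates 1, 2 and 3. This is a correlation across genes, which are not independent replicates, and it touches each of the genes described here.

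PIK3CA (ENSG00000121879.6, GRCh38 chr3:179148114-179240093, plus strand) encodes catalytic subunit alpha. It had 0.84, 0.83 and 0.82 FPKM in NC replicates 1 to 3 and 1.01, 1.34 and 1.48 FPKM in RBM47-OE replicates 1 to 3. The groups did not overlap, and RBM47-OE replicate 1 was the library nearest to NC. The mean was 0.83 ± 0.01 FPKM in NC and 1.28 ± 0.241 FPKM in RBM47-OE (SD, n = 3 in each). The log2 fold change from the counts was 0.54 ± 0.11 (SE, edgeR adjusted p = 0.000558), a fold of 1.46 with a 95% interval from 0.33 to 0.76 on the log2 scale. With the GC offset it was 0.16 ± 0.084 (SE, edgeR adjusted p = 0.235) and not called. PIK3CA has a partial copy elsewhere in the genome, and 3403 of its exonic bases (19.8%) overlap KCNMB3 on the opposite strand, which had 0 to 6 counts.

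PIK3CB (ENSG00000051382.9, chr3:138652698-138834928, minus strand) encodes catalytic subunit beta. It had 5.28, 5.17 and 5.04 FPKM in NC against 6.01, 7.05 and 7.31 FPKM in RBM47-OE, again without overlap. It rose by a log2 fold change of 0.32 ± 0.079 (SE, edgeR adjusted p = 0.00263), and was at 0.03 ± 0.057 (adjusted p = 0.798) and not called with the GC offset. PIK3R1 (ENSG00000145675.15, chr5:68215740-68301821, plus strand), the regulatory subunit that holds and stabilises the catalytic one, had 0.96, 1.02 and 1.06 FPKM in NC and 1.25, 1.25 and 1.48 FPKM in RBM47-OE. The groups did not overlap, and its log2 fold change was 0.32 ± 0.11 (SE, edgeR adjusted p = 0.0223). The PIK3R1 call was lost with the GC offset (0.07 ± 0.096, edgeR adjusted p = 0.708) and with a length offset (0.17, adjusted p = 0.227), and in limma on log2(FPKM + 1) and log2(FPKM + 0.1) it was not made (adjusted p = 0.0572 and 0.0535). It was also lost without NC replicate 1 (adjusted p = 0.0948 in edgeR), with NC replicate 2 left out (0.0753) or with RBM47-OE replicate 3 left out (0.124). In these bulk libraries a change in the number of cells that carry a transcript and a change in its amount per cell cannot be told apart.

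AKT1 (ENSG00000142208.18, chr14:104769349-104795751, minus strand), the AKT kinase most often tied to growth and survival, had 20.34, 21.38 and 19.95 FPKM in NC and 20.69, 19.14 and 18.23 FPKM in RBM47-OE. The groups overlapped, since RBM47-OE replicate 1 lay above NC replicates 1 and 3. Its log2 fold change was -0.16 ± 0.073 (SE, edgeR adjusted p = 0.0951), with a 95% interval from -0.30 to -0.01 before adjustment. Without RBM47-OE replicate 1 it passed the test, at -0.22 (edgeR adjusted p = 0.00382).

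AKT2 (ENSG00000105221.18, chr19:40230317-40285536, minus strand), the AKT kinase best known for glucose handling under insulin, had 5.06, 5.32 and 5.57 FPKM in NC and 4.96, 4.68 and 4.56 FPKM in RBM47-OE. Every RBM47-OE library lay under every NC library, by a narrow margin for replicate 1. AKT2 fell by 0.24 on the log2 scale (SE 0.073, edgeR adjusted p = 0.0124), a fold of 0.848. The call was lost without NC replicate 2 (edgeR adjusted p = 0.0598), NC replicate 3 (0.0963) or RBM47-OE replicate 2 (0.0522), and with scaling by library totals (log2 fold change -0.18, adjusted p = 0.0512). It was lost with the GC offset too (-0.06 ± 0.055, edgeR adjusted p = 0.504), and limma on log2(FPKM + 1) and log2(FPKM + 0.1) did not make it (adjusted p = 0.129 and 0.126).

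INPP5D (ENSG00000168918.14, chr2:233059967-233207903, plus strand) had 31, 72 and 54 counts in NC and 27, 27 and 22 counts in RBM47-OE. In CPM, scaled by library totals and TMM factors and not by gene length, these were 1.18, 2.08 and 1.88 against 0.818, 0.841 and 0.759, and in FPKM 0.12, 0.21 and 0.19 against 0.08, 0.09 and 0.08. All RBM47-OE libraries were lower than all NC libraries, and NC replicate 1 was the NC library nearest to them. The fitted log2 fold change was -1.10 ± 0.29 (SE), given as a description because the gene was chosen for its lower level. INPP5D was the least abundant of the 8 transcripts, and the deposited FPKM values, given to 2 decimals, resolve its RBM47-OE level to 1 digit.

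Since INPP5D is a gene of blood cells, markers of such cells were read beside it. Of 12 blood cell markers 9 were in the table, and their summed level was 2.21 to 2.55 FPKM in NC and 1.18 to 1.83 FPKM in RBM47-OE, so that it was lower where INPP5D was lower. One marker, CORO1A, reached 1 FPKM. FCER1G, a subunit of immunoglobulin receptors, had 9, 13 and 13 counts in NC and 0 counts in all RBM47-OE libraries, while the defining markers IKZF1, CD3E, LAPTM5 and SPI1 had at most 1, 2, 6 and 7 counts in any library. Fibroblast markers, of which 4 of 8 were in the table, summed to 1.51 to 1.77 FPKM in NC and 1.34 to 1.78 FPKM in RBM47-OE. The part of these markers in the INPP5D values was not tested.

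INPPL1 (ENSG00000165458.14, chr11:72223701-72239147, plus strand), the relative of INPP5D found in most tissues, had 12.53, 12.36 and 12.88 FPKM in NC and 12.05, 13.38 and 11.69 FPKM in RBM47-OE. The groups overlapped and the log2 fold change was -0.10 ± 0.071 (SE, edgeR adjusted p = 0.301, 95% interval -0.24 to 0.04). INPPL1 made up nearly all of the summed FPKM of this pair: the INPP5D share was 1.36% ± 0.37 in NC and 0.669% ± 0.0101 in RBM47-OE (SD, n = 3). PHLPP1 (ENSG00000081913.14, chr18:62715541-62980433, plus strand) had 3.31, 2.92 and 2.96 FPKM in NC and 3.19, 2.66 and 3.07 FPKM in RBM47-OE. Its groups overlapped too, and its log2 fold change was -0.11 ± 0.093 (SE, edgeR adjusted p = 0.383, 95% interval -0.29 to 0.07). For both genes the interval leaves room for a small change in either direction.

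**Figure D1:**
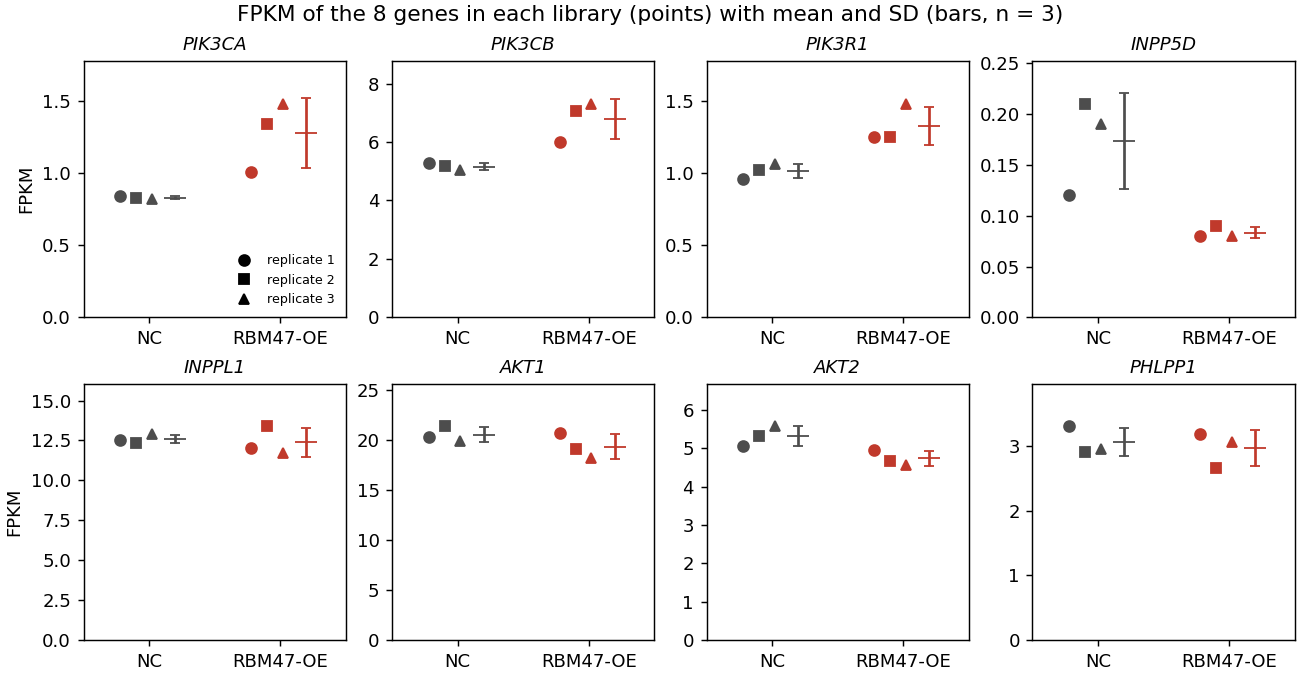
Level of the 8 transcripts in each of the 6 libraries, in FPKM on an axis that starts at 0 in each panel, with 1 point a library (its shape gives the replicate) and the mean and SD of each group (n = 3) beside the points. PIK3CA, PIK3CB and PIK3R1 lie higher in all RBM47-OE libraries, AKT2 and INPP5D lie lower, and the groups of AKT1, INPPL1 and PHLPP1 overlap.

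Leaving INPP5D aside, which was chosen for being lower, the groups did not overlap for 3 of the 7 genes in the higher direction and for 1 in the lower direction, where 23.2% of all genes tested were without overlap as higher and 23.4% as lower. With 3 libraries in each group, an exact permutation test of a single gene cannot give a p under 0.1.

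The order of the levels was read in FPKM, which scales by gene length, and ran over more than 2 orders of magnitude. The lengths behind the deposited values are not given in the sources used here. This order and the shares within families depend on them. In NC, AKT1 was the highest (20.6 FPKM, above 88.7% of 16368 protein-coding genes) and was followed by INPPL1 (12.6), AKT2 (5.32), PIK3CB (5.16), PHLPP1 (3.06), PIK3R1 (1.01), PIK3CA (0.83) and INPP5D (0.173, above 23.0% of coding genes). AKT2 and PIK3CB were neighbours whose NC libraries overlapped, and all other neighbours in NC were apart. In RBM47-OE the same order held except that PIK3CB (6.79) stood above AKT2 (4.73) without overlap, and PIK3R1 (1.33) and PIK3CA (1.28) overlapped. The ratio of PIK3CB to AKT2 was 1.04, 0.972 and 0.905 in NC against 1.21, 1.51 and 1.603 in RBM47-OE. The exons of PIK3CB and AKT2 are 39.7% and 56.9% G and C, and with the GC offset their log2 fold changes were 0.03 and -0.06. In CPM, which is not scaled by gene length, AKT2 stood above PIK3CB in both groups (98.1 against 47.0 in NC, 83.2 against 58.8 in RBM47-OE). The annotated exons together hold 15902 bases for AKT2 and 7841 for PIK3CB, so the order of the 2 genes rests on the length used. The pair was picked after the values were seen, so no test is given.

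Within families, AKT1 made up 79.4% ± 1.099 of the summed FPKM of AKT1 and AKT2 in NC and 80.3% ± 0.336 in RBM47-OE (SD, n = 3). Of the summed FPKM of 3 class I catalytic subunits PIK3CB held 60.3% in NC and 64.2% in RBM47-OE, PIK3CD, which is best known from white blood cells, 29.99% and 23.8%, and PIK3CA 9.69% and 12.01%. The PIK3CA share was 9.32% to 9.89% over the NC libraries and 10.7% to 13.2% over the RBM47-OE libraries, and that of PIK3CD 28.1% to 33.4% and 21.7% to 25.9%, both without overlap. These shares carry no GC offset, and the exons of PIK3CA, PIK3CB and PIK3CD are 34.9%, 39.7% and 59.1% G and C. With the offset their log2 fold changes were 0.16, 0.03 and 0.08, none of them called. PIK3CG had at most 1 count in a library. PHLPP1 held 69.2% and 70.9% of the sum of PHLPP1 and PHLPP2. PIK3R2, the other widely expressed regulatory subunit, had 0 to 3 counts, but it shares 3942 of its 5163 exonic bases (76.4%) with the same-strand gene ENSG00000268173, which had 4352 to 6357 counts. Reads of PIK3R2 cannot be separated from that gene, so the share of PIK3R1 among regulatory subunits is not given.

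The 8 genes differ widely in base composition. The exons of PIK3CA are 34.9% G and C, those of PIK3CB 39.7%, those of PIK3R1 41.0%, those of PHLPP1 51.0% and those of INPP5D 54.2%, while AKT2 has 56.9%, INPPL1 61.0% and AKT1 62.4%. The median of the 16229 genes was 49.0%. The stretches printed next are short pieces of coding sequence, and their composition does not follow that of the whole exons in every gene. Each is the middle 90 bases of the longest coding exon of the gene's canonical transcript, read from hg38 on the transcript's strand, with G and C in capitals.
PIK3CA, chr3:179198956-179199045, plus strand: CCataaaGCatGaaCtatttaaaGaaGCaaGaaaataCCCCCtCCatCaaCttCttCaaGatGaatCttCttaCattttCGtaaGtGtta
PIK3CB, chr3:138714548-138714637, minus strand: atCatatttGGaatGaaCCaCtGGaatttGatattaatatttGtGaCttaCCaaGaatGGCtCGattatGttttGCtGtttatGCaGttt
AKT1, chr14:104772940-104773029, minus strand: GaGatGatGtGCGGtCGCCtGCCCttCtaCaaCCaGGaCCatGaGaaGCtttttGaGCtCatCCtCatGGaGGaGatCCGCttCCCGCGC
AKT2, chr19:40235952-40236041, minus strand: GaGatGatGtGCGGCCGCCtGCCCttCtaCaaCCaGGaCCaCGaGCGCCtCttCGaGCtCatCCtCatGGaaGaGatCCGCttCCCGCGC
INPP5D, chr2:233204376-233204465, plus strand: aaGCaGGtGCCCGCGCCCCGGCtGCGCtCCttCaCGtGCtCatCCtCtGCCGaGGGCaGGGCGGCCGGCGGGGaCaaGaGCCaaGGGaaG
The share of G and C is 33.3% in the PIK3CA stretch, 31.1% in PIK3CB, 56.7% in AKT1, 62.2% in AKT2 and 72.2% in INPP5D. INPP5D thus has the highest share of these stretches, while AKT1 has the highest over whole exons. Stretches taken the same way and not printed held 50% in PIK3R1, 70% in INPPL1 and 88.9% in PHLPP1. The AKT1 and AKT2 stretches come from the same place in the kinase and are identical at 82 of 90 bases. How well reads were told apart between AKT1 and AKT2 was not tested. The PIK3CA and PIK3CB stretches were each taken by position in their own exon and were not aligned, so no identity is given for them.

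The 3 genes with the lowest GC content were those that rose, and the other 5 had fold changes under 0 on the log2 scale, though not in the order of their GC content. The genes were cut into 10 bins of equal size by the GC content of their exons. In bin 1, with the lowest GC content, which holds PIK3CA, the median log2 fold change was 0.38, beside 0.54 for PIK3CA. In bin 2, which holds PIK3CB and PIK3R1, the median was 0.31, beside 0.32 for each of them. AKT1 lay in bin 10, with a median of -0.23 beside its own -0.16. The medians were -0.22 in bin 9 beside -0.10 for INPPL1, -0.20 in bin 8 beside -0.24 for AKT2, and -0.09 in bin 6 beside -0.11 for PHLPP1. INPP5D was in bin 7, whose median was -0.15, beside its own -1.10.

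**Figure D2:**
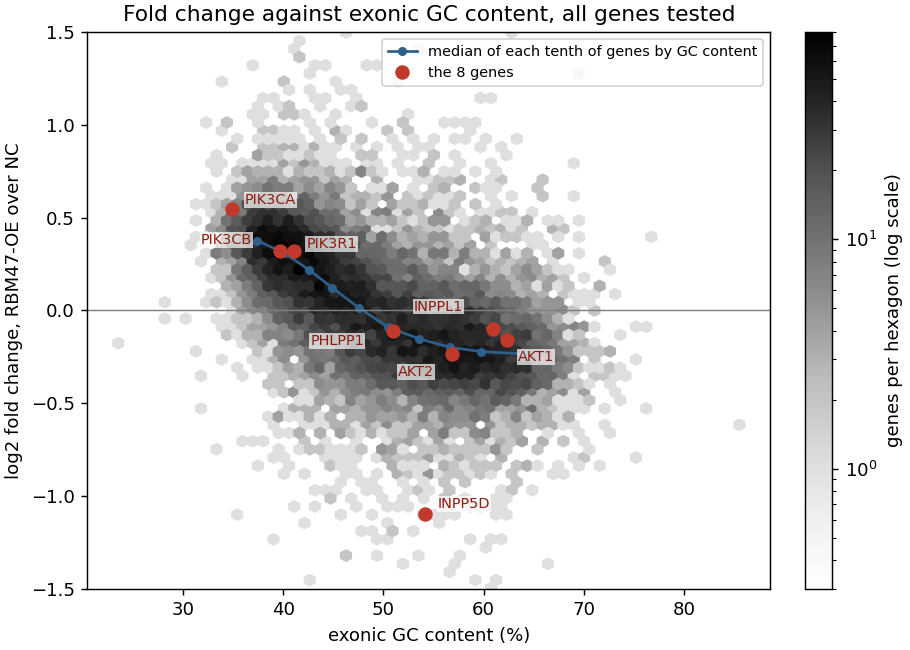
Log2 fold change (RBM47-OE over NC) against the GC content of the gene's exons in percent, with shading for the number of genes tested, a line through the median of each of 10 GC bins, and the 8 genes marked by name. The median falls from 0.38 to -0.23 from left to right, and 7 of the 8 genes lie near it while INPP5D lies at -1.10; 26 genes beyond 1.5 on the log2 scale are outside the axis.

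The GC offset was fitted for each library. With it, 0 of the 7 genes other than INPP5D passed the adjusted threshold of edgeR in either direction, and 0 had an unadjusted p under 0.05. AKT1 and INPPL1 changed sign, to 0.05 ± 0.055 and 0.11 ± 0.058 (SE), and PHLPP1 was at -0.02 ± 0.082. INPP5D stayed at -0.95 ± 0.28. DESeq2 without this offset made the same calls for the 7 genes as edgeR did. The offset removes any change that runs along GC content, so what produced the trend and how much of each gene's change belongs to it cannot be told apart here.

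The RBM47-OE libraries differed among themselves. Against the NC mean, PIK3CA was higher by 0.24, 0.58 and 0.76 on the log2 scale in RBM47-OE replicates 1, 2 and 3, and PIK3CB by 0.18, 0.34 and 0.43. AKT1 stood at -0.03, -0.21 and -0.24 and AKT2 at -0.14, -0.29 and -0.29. Replicate 1 was the RBM47-OE library nearest to NC for these 4 genes and for PHLPP1 (0.02, -0.31 and -0.06). For PIK3R1 (0.27, 0.20 and 0.48) and INPPL1 (-0.10, -0.02 and -0.18) it was replicate 2. INPP5D stood at -0.97, -0.93 and -1.07, nearly alike in the 3 libraries.

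**Figure D3:**
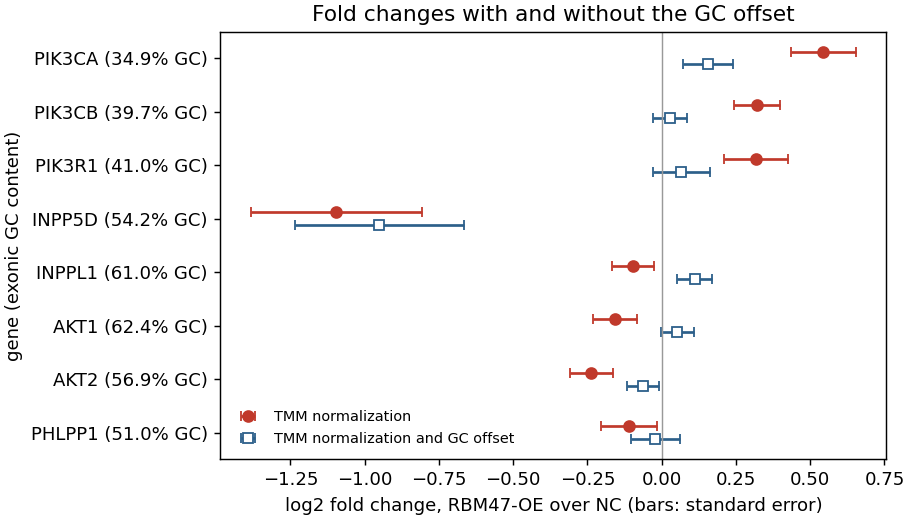
Log2 fold change (RBM47-OE over NC) of each of the 8 genes with a bar of 1 standard error to each side, without (filled points) and with (open squares) the offset for GC content. Without the offset the values run from -1.10 (INPP5D) to 0.54 (PIK3CA), and with it those of the 7 genes other than INPP5D lie between -0.06 and 0.16.

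The rest of the pathway was read from 10 lists written from general knowledge. Without the 8 genes, 90 of their 92 genes were in the table and 86 passed the filter. In edgeR 24 of the 86 were higher, 15 were lower and 47 were not called, beside 19.1% higher and 16.9% lower over all genes tested. The median log2 fold change of the 86 genes was 0.05, against 0.00 over all genes tested (3.96e-05). With the GC offset 16 were higher and 7 lower, beside 5.97% and 8.57%. Called only with the offset were INSR, SYNJ2, PDPK1 and FOXO4 as higher and OCRL, PHLPP2 and PPP2R2A as lower. For the calls without the offset, the median GC content was 42.0% over the higher genes with a known composition and 59.8% over the lower ones. Over all genes called it was 40.3% and 57.1%.

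Of 4 genes tested of PI3K classes II and III, 2 rose, beside 19.1% higher and 16.9% lower over all genes tested. PIK3C2A, a class II kinase of endocytic membranes, rose by 0.61 on the log2 scale (SE 0.077), and PIK3C3, the class III kinase VPS34 needed for autophagy, by 0.63 (SE 0.093). Both stayed past the edgeR threshold with the GC offset, at 0.28 (SE 0.056) and 0.29 (SE 0.075). The other 2, PIK3C2B and PIK3R4, were at 0.00 (0.00321, SE 0.0953) and -0.02 (SE 0.11), and none of the 4 was called lower by edgeR or DESeq2, with 0 at an unadjusted p under 0.05. Of the 3 class I catalytic genes tested PIK3CA and PIK3CB were higher, and of the 5 regulatory genes tested PIK3R1 was. Neither list had a lower gene in edgeR, in DESeq2 or at an unadjusted p under 0.05, and the remaining catalytic gene, PIK3CD, was at -0.11 ± 0.10 (SE).

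Of 15 upstream receptors and adaptors 2 rose and 3 fell, beside 19.1% and 16.9% of all genes tested. MET, the receptor for hepatocyte growth factor, rose by 0.41 (SE 0.074) and NRAS by 0.29 (SE 0.081), while HRAS fell by 0.54 (SE 0.074) and RRAS by 0.35 (SE 0.081). These RAS proteins are small GTPases of growth factor signalling, and their exons are 37.4% (NRAS), 65.6% (HRAS) and 63.9% (RRAS) G and C. With the GC offset MET and HRAS stayed past the threshold, at 0.24 (SE 0.057) and -0.33 (SE 0.058), RRAS did not, at -0.14 (SE 0.061), and NRAS changed sign, to -0.05 (SE 0.058).

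The list of inositol lipid phosphatases had 13 genes past the filter, INPP5D and INPPL1 among them. Other than INPP5D, 2 rose and 2 fell, beside 19.1% and 16.9% of all genes tested. INPP4B, which acts on the product of INPP5D and INPPL1, rose by 0.46 (SE 0.11) and INPP5F by 0.29 (SE 0.084). INPP5K fell by 0.32 (SE 0.083) and INPP5E by 0.31 (SE 0.11). None of these 4 stayed past the edgeR threshold with the GC offset, where INPP4B was at 0.11 (SE 0.093), INPP5F at 0.17 (SE 0.069), INPP5K at -0.14 (SE 0.069) and INPP5E at -0.10 (SE 0.093).

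**Figure D4:**
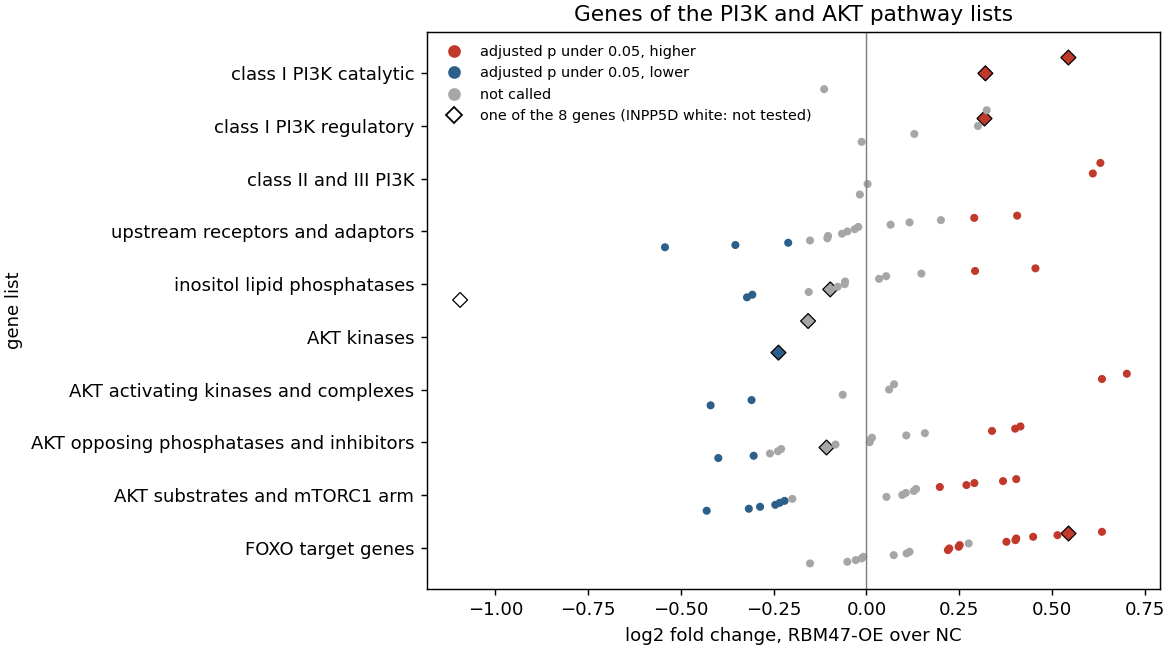
Log2 fold change (RBM47-OE over NC) of each tested gene of the 10 lists, 1 point a gene and 1 line a list. Red marks genes called higher, blue genes called lower and grey genes not called at an adjusted p under 0.05. Diamonds mark the 8 genes, and INPP5D is white because it was chosen for its lower level and no call is given for it. FOXO target genes lie mostly to the right of 0, with 11 of 20 called higher beside 19.1% of all genes tested. Most other lists lie on both sides of 0.

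Around AKT, 2 of 7 activating kinases and complex members tested rose and 2 fell, beside 19.1% and 16.9% of all genes tested. DEPTOR, an inhibitor of mTOR complexes, rose by 0.70 (SE 0.14) and RICTOR, the defining subunit of mTORC2, by 0.64 (SE 0.092). MLST8, shared by both mTOR complexes, fell by 0.42 (SE 0.077) and PRR5, an mTORC2 subunit, by 0.31 (SE 0.093). With the GC offset the first 3 kept their calls, at 0.61 (SE 0.13), 0.27 (SE 0.073) and -0.21 (SE 0.063). PDPK1 was at 0.06 (SE 0.075) and not called, but was called higher with the offset, at 0.20 (SE 0.063). MTOR was at -0.06 (SE 0.069).

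Beside 19.1% higher and 16.9% lower over all genes tested, 3 of 15 phosphatase subunits and inhibitors that oppose AKT, PHLPP1 included, rose and 2 fell. These were subunits of protein phosphatase PP2A: the regulatory subunits PPP2R5E (0.42, SE 0.084), PPP2R5A (0.40, SE 0.075) and PPP2R5C (0.34, SE 0.081) rose, and the scaffold PPP2R1A (-0.40, SE 0.072) and PPP2R5D (-0.30, SE 0.072) fell. PPP2R5A and PPP2R1A stayed past the threshold with the GC offset, at 0.33 (SE 0.058) and -0.29 (SE 0.058). PHLPP2 was at -0.24 ± 0.10 (SE) and not called, but was called lower with the offset, at -0.36 (SE 0.089).

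Of 17 AKT substrates and genes of the mTORC1 arm 5 rose and 6 fell, beside 19.1% and 16.9% of all genes tested. CDKN1B, a cell cycle inhibitor, rose by 0.40 (SE 0.082) and RPS6KB1, an S6 kinase, by 0.37 (SE 0.09), while AKT1S1, an inhibitory subunit of mTORC1, fell by 0.43 (SE 0.078) and GSK3A, a kinase that AKT inactivates, by 0.32 (SE 0.08). Of these 4, AKT1S1 stayed past the threshold with the GC offset, at -0.23 (SE 0.059).

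Among 20 genes tested of the FOXO target list, 11 rose and 0 fell in edgeR, beside 19.1% and 16.9% of all genes tested, with 0 lower at an unadjusted p under 0.05 and 0 lower in DESeq2. PIK3CA and RICTOR, which FOXO factors are described to induce, had the largest changes in this list. The median GC content of the list was 43.6%, between the medians of GC bins 3 (42.5%) and 4 (44.9%), whose median log2 fold changes were 0.22 and 0.12. The median log2 fold change was 0.24 over the 20 genes, and 0.15 with the GC offset. With the offset 6 were higher and 0 lower in edgeR, beside 5.97% and 8.57% of all genes tested. At an unadjusted p under 0.05 in that fit, 1 was lower. RICTOR was among the 6 and PIK3CA was not. Like PIK3CA and RICTOR, CDKN1B, IRS2, INSR, ERBB3 and PIK3IP1 stand in a second list too. Of the 21 genes named from the lists by the rule on size, other than the 8, 10 kept their call with the GC offset and 1 changed sign. Over all list genes called, other than the 8, 12 of 24 higher and 4 of 15 lower genes kept theirs.

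The promoters were searched for the FOXO motif GTAAACA on both strands, in the 250 bases before the gene start in RefSeq (GRCh38.p14). It stood in the PIK3CA promoter, as it did in 1046 of 35116 promoters (2.98%), and in none of the listed promoters of the other 7 genes. The site is shown because PIK3CA had the largest rise of the 8 genes and is in the FOXO list, with the motif in capitals.
PIK3CA, chr3:179148197-179148226, plus strand: agttcgttgttTGTTTACacgatgtgagcg
The motif reads on the minus strand, and its capitals begin 149 bases before the RefSeq gene start. That start lies downstream of the start given for PIK3CA from GENCODE, so the site is inside the gene as GENCODE draws it. A match of letters is a description and shows no binding. The median GC content of the listed promoters was 50.4% for PIK3R1 (4 promoters), 55% for PIK3CB (2), 57.6% for PIK3CA (1) and 59.2% to 71.6% for the other 5 genes, against 58% over all promoters.

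RBM47 is known to bind AU-rich stretches of transcripts, and the pentamer ATTTA was counted on the transcript's strand of each 3′ UTR as a description. PIK3CA held 28 in 5732 bases (4.88 per kb), PIK3CB 13 in 2694 (4.83), PHLPP1 4 in 1005 (3.98), INPPL1 3 in 797 (3.76), AKT1 2 in 995 (2.01), PIK3R1 8 in 4223 (1.89) and AKT2 2 in 3558 (0.562), while INPP5D held 0 in 1198 bases. Over 12740 genes the median was 1.67 per kb, and 73.7% held at least 1. Of the 3 that rose, PIK3CA and PIK3CB had the most per kb, and PIK3R1 had fewer than PHLPP1, INPPL1 and AKT1, which were not called. The 3′ UTRs are 31.9% G and C in PIK3CA, 37.4% in PIK3CB, 36.8% in PIK3R1 and 40.5% to 56.8% in the other genes. Any part of the pentamers in these changes was not tested.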

How the data were processed

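RNA was sequenced from 3 NC and 3 RBM47-OE libraries of HCT116 cells. HISAT2 was the aligner and GRCh38 the build, and the authors deposited a table of raw counts per gene and a table of FPKM values per gene. The counting tool, its strand setting and the annotation release are not given in the sources used here. The authors tested genes with DESeq2.

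Counts were tested with edgeR 4.0.16 (R 4.3.3): filterByExpr (minimum count 10, minimum total 15), TMM factors, quasi-likelihood fit on condition alone, and Benjamini-Hochberg adjustment over all 16260 genes tested. The standard error is the log2 fold change over the square root of F, and the 95% intervals are normal. FPKM was used for levels between genes. The GC offset was a loess curve (span 0.3) per library of the log2 CPM (prior count 2) difference from the mean of the libraries against exonic GC content from GENCODE 44. Alternatives were DESeq2 1.42.0, RLE factors, library totals, other filters, a length offset, a replicate block, limma 3.58.1 on log2(FPKM + 1) and log2(FPKM + 0.1), the thresholds of the study's methods, and leaving out each library. The fitting code was tested on simulated counts. The 8 genes and the lists were chosen with earlier results of these data known. Genes named from a list were up to 2 per direction with the largest absolute log2 fold change among those with an adjusted p under 0.05 and no overlap between groups, and any further gene named was chosen after its values were seen. PIK3C2G and TXNIP were not analysed here, and some genes of the pathway are not reported here.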

Additional observations from a re-analysis of the deposited data

How the results depend on the processing

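The GC offset changed most calls. With it, and with it and a replicate block, genes higher numbered 971 and 1045 and genes lower 1393 and 1461, against 3100 and 2740. Neither fit called any of the 7 genes other than INPP5D. INPP5D, which was chosen for its lower level, is left out of the counts of the 7 given here. The log2 fold changes in these 2 fits were 0.16 and 0.15 for PIK3CA, 0.0283 and 0.0282 for PIK3CB, 0.0663 and 0.0633 for PIK3R1, -0.0625 and -0.0619 for AKT2, and, with the opposite sign, 0.11 and 0.11 for INPPL1 and 0.0532 and 0.0535 for AKT1. The thresholds of the study's methods left 245 genes higher and 142 lower, with none of the 7 among them. limma on log2(FPKM + 1) and log2(FPKM + 0.1) gave 1586 and 1599 genes lower and 0 and 0 of the 7 lower. PIK3R1 was then at 0.21 and 0.35 and AKT2 at -0.14 and -0.16, neither called. INPP5D was at -0.11 and -0.56, values that a pseudocount near or above its level draws towards 0. The length offset gave 0.17 for PIK3R1, no longer called, and -0.27 for AKT1, now past the threshold. With library totals AKT2 was at -0.18 and no longer called, which left none of the 7 lower. Of called genes 66.2% were then higher, against 53.1% with TMM factors, 41.1% with the GC offset and 64.4% and 64.6% with limma. Leaving out 1 library gave 1675 to 3508 genes lower (2090 to 3864 higher). Of the 7 genes, 2 to 3 were then higher. AKT1 was called lower only without RBM47-OE replicate 1, and AKT2 lost its call without NC replicate 2, NC replicate 3 or RBM47-OE replicate 2. PIK3R1 ran from 0.23 to 0.37, AKT1 from -0.22 to -0.12 and AKT2 from -0.28 to -0.20. PHLPP1 stayed uncalled in all 18 alternatives. The replicate numbers did not pair the libraries (correlations of same-numbered deviations -0.060, -0.015 and -0.016). A replicate block alone gave 2957 genes higher and 2510 lower, and changed no call among the 7. INPP5D had 22 to 72 counts a library, which limits the precision of its value.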

Other observations

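For each of the 8 genes, the gene of all those tested whose log2 CPM ran most closely with it over the 6 libraries was found by Pearson's r, as a description without a test. They were TAX1BP1 for PIK3CA (0.999), PAPOLA for PIK3CB (1.00), FAM71E1 for INPP5D (0.997), MADCAM1-AS1 for INPPL1 (0.997), CRYBG2 for AKT1 (0.999), PRRC2B for AKT2 (1.00) and RP11-54C4.3 for PHLPP1 (0.989), and for PIK3R1 a gene with a clone name only (0.999). Each is the highest of 16260 genes over 6 libraries that share the GC trend, and says nothing of shared function.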
